A study of Mus musculus with 4 samples.

Results

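A group of 10 genes that encode neuronal RNA-binding proteins or their widely expressed relatives was followed in the embryonic mouse forebrain, namely Ptbp1, Ptbp2, Nova1, Nova2, Elavl1, Elavl2, Elavl3, Elavl4, Rbfox2 and Srrm4. They were chosen by name, and 9 of the 10 matched one of the 16449 rows of the gene count table by Ensembl identifier. Nova2 was not analysed here. All 9 had enough counts to be tested, among 5878 tested genes.

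Nanopore long reads were taken from the dissected dorsal and medial pallium of E11.5 embryos, the forebrain wall from which neocortex and hippocampus arise. The comparison asked what changes when Tut1, the gene of the terminal uridylyltransferase that extends the end of U6 snRNA, is deleted. It comprised 2 libraries with the genotype label WT and 2 labelled as Tut1 knockout (Tut1 f/f;Emx1-Cre; below, KO-labelled), in which Cre recombinase under Emx1 removes a floxed exon in neural stem cells of the dorsal forebrain and their descendants. The study lists its controls as Tut1 f/f without Cre, so all 4 libraries carried the floxed allele, and cells outside the Emx1 lineage, such as microglia and vessel cells, keep an intact gene in either group. How many embryos entered a library is not stated, and no description says whether replicates came from separate embryos. Sex-linked counts, given below, differed between the 2 WT libraries, so these held different embryos. The KO-labelled libraries were alike in these counts, which cannot show whether they held different embryos. Every p-value here measures the spread between these libraries, which may be technical in part.

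Progenitors and neurons use different sets of RNA-binding proteins. Ptbp1 binds pyrimidine-rich stretches of precursor RNA and holds neuronal exons out of the transcripts of progenitors, and as neurons form, the microRNA miR-124 represses it and its paralogue Ptbp2 takes its place. Nova, Rbfox and neuronal Elavl (Hu) proteins and the SR-related protein Srrm4 then promote neuronal exon choices, and Elavl proteins also stabilise messages.

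Counts were low. The totals over genes ranged from 305642 to 397150 per library, and the median count of a tested gene ranged from 19 to 25. Each of the 9 genes had at least 26 counts in every library, which is above that median. Tut1 itself had 6 and 11 counts in WT replicates 1 and 2, and 29 and 25 counts in KO-labelled replicates 1 and 2 (log2 fold change 1.71 ± 0.40 (SE), edgeR adjusted p = 0.0113). It was thus higher in the KO-labelled libraries, although its adjusted p was 0.133, 0.16 or 0.2 with WT replicate 1, KO-labelled replicate 2 or KO-labelled replicate 1 left out, and 0.44 in DESeq2. A gene count cannot show whether the floxed exon was present, so the labels were not checked by it, and every direction below follows the labels. Only WT replicate 1 had Xist counts (64), in which Ddx3y, Uty, Kdm5d and Eif2s3y, all Y-linked, had 0 counts. Each other library had 0 Xist counts and had counts of all these Y-linked genes (Eif2s3y 36 in WT replicate 2, 42 and 27 in the KO-labelled libraries). WT replicate 1 thus looked female and the others male, so sex was not balanced between the groups. Forebrain progenitor genes marked the tissue, with Lhx2 at 907 CPM and Pax6 at 373.7 CPM in WT (CPM, counts scaled to TMM-corrected library size, mean of 2).

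In the KO-labelled libraries, Rbfox2 rose 1.87-fold, and it was the only one of the 9 genes past an adjusted p of 0.05 (edgeR quasi-likelihood test, adjusted over all tested genes). Over all tested genes 2.06% passed this threshold. The other 8 genes did not pass, and 6 of the 9 log2 fold changes were positive (Elavl1 to Elavl4, Rbfox2 and Srrm4) and 3 negative (Ptbp1, Ptbp2 and Nova1). At an unadjusted p below 0.05, 5 of the 9 differed (Ptbp1, Elavl3, Elavl4, Rbfox2 and Srrm4), beside 14.2% of all tested genes. In all 9 the CPM values of the groups did not overlap, which with 2 libraries per group held for 42.9% of tested genes. The median log2 fold change was 0.34 over the 9 genes and -0.01 over all tested genes. In bulk tissue, fewer cells of a type and less RNA per cell cannot be told apart.

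**Figure D1:**
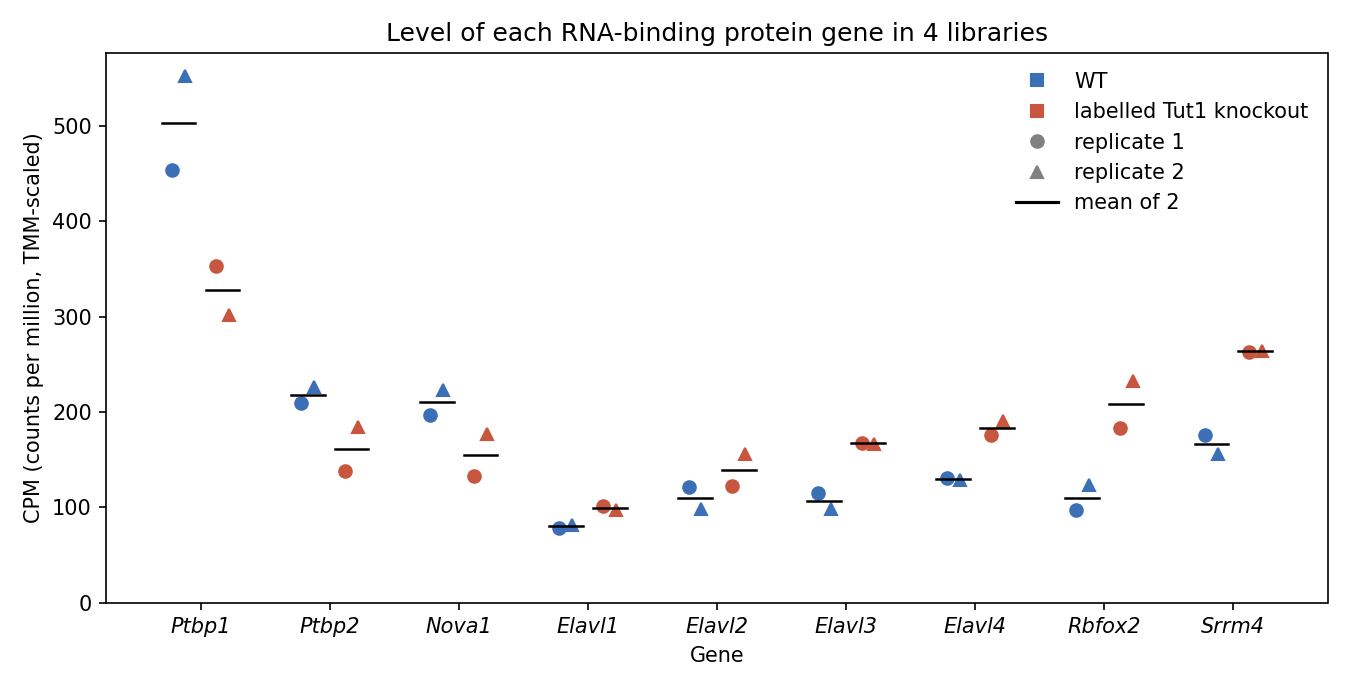
Level of each gene (CPM, vertical axis from 0) in the 2 WT libraries (blue) and the 2 libraries labelled Tut1 knockout (red), where circles are replicate 1, triangles are replicate 2 and bars are means of 2. Ptbp1, Ptbp2 and Nova1 lay lower and the other 6 genes higher in both KO-labelled libraries than in both WT libraries.

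The Ptbp genes came first, as they stand at the head of the switch. Both carry an alternative exon of 34 bases, a length that is not a multiple of 3, so that leaving it out shifts the reading frame. Skipping of this exon in Ptbp2 under Ptbp1 is a textbook case of regulation by nonsense-mediated decay (NMD), the removal of messages with an early stop. The 2 exons are shown because a gene count adds transcripts with and without them. They were read from GENCODE M21 transcripts (GRCm38, chr10:79862014-79862047, plus strand, for Ptbp1 and chr3:119724612-119724645, minus strand, for Ptbp2), and capitals mark bases at which the paralogues differ:
Ptbp1 exon: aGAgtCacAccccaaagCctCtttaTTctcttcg
Ptbp2 exon: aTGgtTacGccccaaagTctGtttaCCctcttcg

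The exons share 26 of 34 bases, and each is exon 10 of the transcript with the longest coding sequence of its gene. In the annotation the Ptbp1 exon is present in 4 transcripts and skipped in 2, both classed as NMD targets. The Ptbp2 exon is present in 3 transcripts and skipped in 3, of which 2 are classed as NMD targets and 1 as a retained intron. Splicing was not analysed here, and the counts below do not separate productive from unproductive messages.

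Ptbp1 (ENSMUSG00000006498; chromosome 10, 79854427 to 79864771, plus strand) had 150 and 198 counts in WT and 133 and 87 counts in the KO-labelled libraries. These were 454.4 and 553 CPM in WT against 353.4 and 302.2 CPM, so the highest KO-labelled library stayed below the lowest WT library. The mean ± SD over 2 libraries was 503.7 ± 69.8 CPM in WT against 327.8 ± 36.3 CPM. The log2 fold change of -0.61 ± 0.18 (SE; 95% interval -0.98 to -0.25) had an unadjusted p of 0.00139 and an edgeR adjusted p of 0.058, and thus did not pass the threshold. Plppr3, E130317F20Rik and Gm17134 overlap the gene on the opposite strand. Whether counting used strand is not stated.

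Ptbp2 (ENSMUSG00000028134; chromosome 3, 119718742 to 119784466, minus strand) had 69 and 81 counts in WT and 52 and 53 counts in the KO-labelled libraries. Its level was 209 and 226.2 CPM against 138.2 and 184.1 CPM, or 217.6 ± 12.2 in WT and 161.1 ± 32.4 in the KO-labelled libraries (SD, n = 2 each). The groups did not overlap, yet the KO-labelled libraries lay farther from each other than the higher of them lay from the lower WT library. The log2 fold change of Ptbp2 was -0.45 ± 0.23 (95% interval -0.92 to 0.02; edgeR adjusted p = 0.39).

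The balance of the pair was then compared within each library, since such a ratio does not depend on scaling between libraries. Ptbp2 counts were 0.462 and 0.411 of Ptbp1 counts in WT, and 0.393 and 0.611 in the KO-labelled libraries (0.5 added to each count). The KO-labelled libraries thus held both the lowest and the highest ratio. The difference of the log2 ratios was 0.17 (exact permutation test, two-sided, p = 1), and with 2 against 2 libraries the smallest p possible is 0.333, so that no shift of any size could have passed. The difference was 0.49 without KO-labelled replicate 1 and -0.15 without KO-labelled replicate 2, so its direction rested on 1 library. Both genes had lower values in the KO-labelled libraries.

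Nova1 (ENSMUSG00000021047; chromosome 12, 46694517 to 46818929, minus strand) encodes a KH-domain protein that regulates exons of synaptic genes. It had 65 and 80 counts in WT and 50 and 51 counts in the KO-labelled libraries. The levels were 196.9 and 223.4 CPM against 132.9 and 177.1 CPM. They stood close to those of Ptbp2, with replicate 2 above replicate 1 in each group of either gene. For Nova1 the log2 fold change was -0.46 ± 0.24 (95% interval -0.94 to 0.02; edgeR adjusted p = 0.392). The planned ratio of Nova1 over Nova2 could not be computed.

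The Elavl genes encode Hu proteins, which bind U-rich and AU-rich stretches. Elavl1 (HuR) is made in nearly all cells, and Elavl2, Elavl3 and Elavl4 are made in neurons. The family is similar in sequence, and how any reads with several matches were handled is not stated. Whether reads were shared between these genes was not tested. Coding identity between pairs ranged from 71.6% (Elavl1 and Elavl3) to 78.1% (Elavl3 and Elavl4), and the longest identical run was 29 bases, in Elavl3 and Elavl4. The most alike stretch of 60 coding bases, in which 46 positions are the same in all 4 genes, is shown to let the differences be seen, with capitals at the 14 positions that differ:
Elavl1: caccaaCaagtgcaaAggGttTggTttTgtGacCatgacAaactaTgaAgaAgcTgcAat
Elavl2: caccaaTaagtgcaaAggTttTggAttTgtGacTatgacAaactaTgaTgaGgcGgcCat
Elavl3: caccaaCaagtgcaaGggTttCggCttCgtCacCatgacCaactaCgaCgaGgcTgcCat
Elavl4: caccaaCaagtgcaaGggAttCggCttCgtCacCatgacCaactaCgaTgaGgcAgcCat

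The 4 stretches begin at coding bases 840, 1026, 960 and 1014, counted from the start codon in the longest coding transcript of Elavl1, Elavl2, Elavl3 and Elavl4.

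Elavl1 (ENSMUSG00000040028; chromosome 8, 4285382 to 4325413, minus strand) had 26 and 29 counts in WT and 38 and 28 counts in the KO-labelled libraries. It was at 78.8 and 81 CPM in WT against 101 and 97.2 CPM. Replicates lay close together and the groups did not overlap, yet the counts were few, and the log2 fold change was 0.31 ± 0.29 (95% interval -0.28 to 0.91; edgeR adjusted p = 0.706). Ccl25 overlaps it on the opposite strand.

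Of the neuronal members, Elavl2 (ENSMUSG00000008489; chromosome 4, 91250763 to 91400785, minus strand) had 40 and 35 counts in WT and 46 and 45 counts in the KO-labelled libraries. Its levels were 121.2 and 97.8 CPM against 122.2 and 156.3 CPM, so that WT replicate 1 and KO-labelled replicate 1 were nearly equal. Elavl2 had a log2 fold change of 0.34 ± 0.27 (95% interval -0.21 to 0.88; edgeR adjusted p = 0.64).

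Elavl3 (ENSMUSG00000003410; chromosome 9, 22015005 to 22052023, minus strand) encodes HuC, whose presence is widely used to mark newborn neurons. It had 38 and 35 counts in WT and 63 and 48 counts in the KO-labelled libraries, or 115.1 and 97.8 CPM against 167.4 and 166.7 CPM. Both KO-labelled libraries stood well above WT and close to each other. Elavl3 had a log2 fold change of 0.65 ± 0.26 (95% interval 0.13 to 1.17), with an unadjusted p of 0.0153 and an edgeR adjusted p of 0.205.

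Elavl4 (ENSMUSG00000028546; chromosome 4, 110203722 to 110351909, minus strand), which encodes HuD, had 43 and 46 counts in WT and 66 and 55 counts in the KO-labelled libraries. The levels of 130.2 and 128.5 CPM in WT and 175.4 and 191 CPM in the KO-labelled libraries were again clear of each other. The log2 fold change of 0.50 ± 0.24 had an unadjusted p of 0.0494 and did not pass after adjustment (edgeR adjusted p = 0.349).

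Taken within a library, the summed counts of Elavl2, Elavl3 and Elavl4 were 4.58 and 3.95 times those of Elavl1 in WT, and 4.56 and 5.21 times in the KO-labelled libraries. WT replicate 1 and KO-labelled replicate 1 had almost the same ratio. The difference of the log2 ratios was 0.20 (exact permutation test, two-sided, p = 0.667, smallest possible 0.333, so that no shift of any size could have passed this test).

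**Figure D2:**
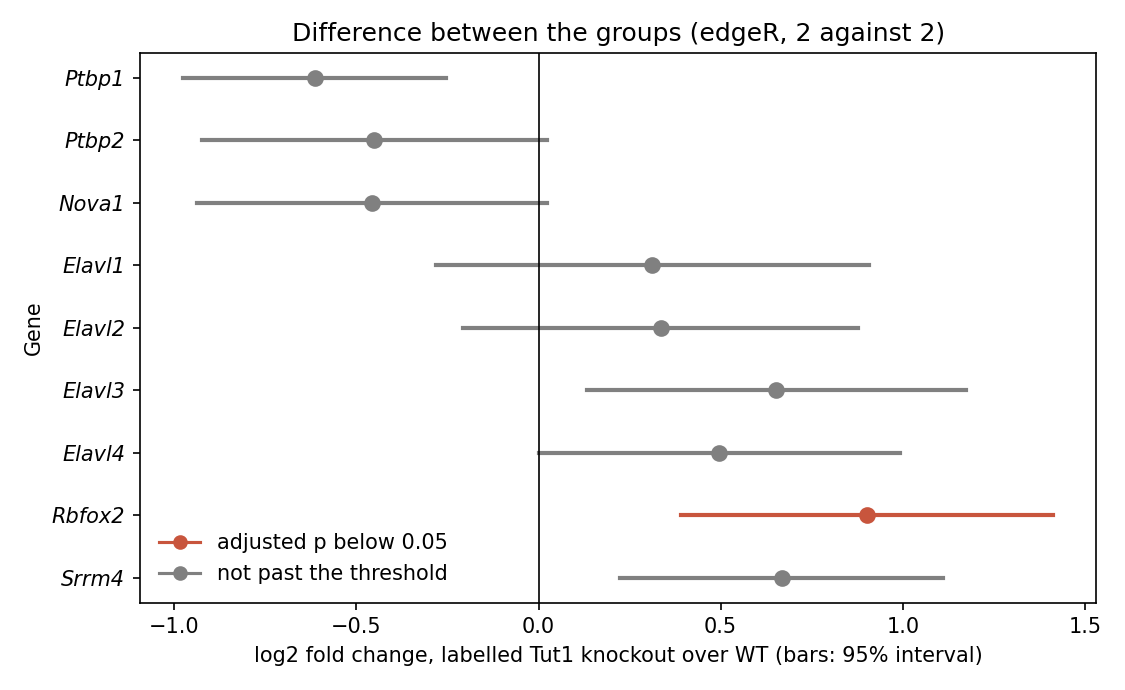
Log2 fold change of each gene, libraries labelled Tut1 knockout over WT (horizontal axis), with bars for the 95% interval of the edgeR fit. Only Rbfox2 (red, 0.90) was past the adjusted threshold, and the intervals of Ptbp2, Nova1, Elavl1 and Elavl2 include 0.

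Rbfox2 (ENSMUSG00000033565; chromosome 15, 77078990 to 77307004, minus strand) encodes a splicing regulator that binds GCAUG elements and acts in many tissues besides brain. It had 32 and 44 counts in WT and 69 and 67 counts in the KO-labelled libraries. Its levels were 96.9 and 122.9 CPM in WT and 183.4 and 232.7 CPM in the KO-labelled libraries, with a wide gap between the highest WT library and the lowest of the others. The group levels were 109.9 ± 18.4 and 208 ± 34.9 CPM (SD, n = 2 each). The rise of Rbfox2 was 0.90 ± 0.25 as a log2 fold change (95% interval 0.39 to 1.41; unadjusted p = 0.000962, edgeR adjusted p = 0.0471). This adjusted p lay just under the threshold. When a library was left out, the log2 fold change stayed between 0.73 and 1.08, but Rbfox2 no longer passed: its edgeR adjusted p rose to 0.335 (WT replicate 1 left out), 0.0723 (WT replicate 2), 0.203 (KO-labelled replicate 1) and 0.363 (KO-labelled replicate 2). With all 4 libraries, the edgeR adjusted p of Rbfox2 was 0.0606 with the replicate number as a block and 0.0526 without a filter on low counts. In DESeq2 it was 0.616 (unadjusted p = 0.0159).

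The paralogues of Rbfox2 were examined beside it. Their coding sequences are 69.3% to 73.0% identical by pair, and the longest identical run, 29 bases, is shared by Rbfox1 and Rbfox2. The most alike 60 coding bases lie at 598 to 657 in Rbfox1, 730 to 789 in Rbfox2 and 487 to 546 in Rbfox3. They are shown since Rbfox1 and Rbfox2 both rose and the treatment of any reads that match both is not stated. Whether such reads occurred was not tested. Capitals mark the 10 positions that differ:
Rbfox1: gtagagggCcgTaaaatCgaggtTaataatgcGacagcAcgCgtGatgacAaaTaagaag
Rbfox2: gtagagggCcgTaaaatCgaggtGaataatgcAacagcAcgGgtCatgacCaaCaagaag
Rbfox3: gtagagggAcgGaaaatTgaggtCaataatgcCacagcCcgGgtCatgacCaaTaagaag

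Rbfox1 (ENSMUSG00000008658; chromosome 16, 5885355 to 7411526, plus strand), a regulator of neuronal exons and message stability, rose from 5 and 9 counts in WT to 21 in each KO-labelled library (log2 fold change 1.63 ± 0.44, edgeR adjusted p = 0.0362). It was not past the threshold in limma-voom (adjusted p = 0.12), with the replicate number as a block (0.0588) or when each library in turn was left out (adjusted p 0.0547 to 0.318). Rbfox3 (ENSMUSG00000025576; chromosome 11, 118489762 to 118911597, minus strand) encodes NeuN, the common marker of mature neurons, and is named here after its values were seen. It had 66 and 72 counts in WT and 104 and 94 counts in the KO-labelled libraries (0.58 ± 0.21, edgeR adjusted p = 0.149). The paralogues were looked at because Rbfox2 had passed, so they are no independent support for it.

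Srrm4 (ENSMUSG00000063919; chromosome 5, 116439275 to 116591817, minus strand), also called nSR100, promotes the inclusion of microexons in neurons and is itself repressed by the factor REST outside the nervous system. It had 58 and 56 counts in WT and 99 and 76 counts in the KO-labelled libraries. Its levels were 175.7 and 156.4 CPM against 263.1 and 264 CPM, with the KO-labelled libraries nearly identical and above both WT libraries. Srrm4 had a log2 fold change of 0.67 ± 0.22 (95% interval 0.22 to 1.11), with an unadjusted p of 0.00414 and an edgeR adjusted p of 0.102. Srrm4os overlaps Srrm4 on the opposite strand. Genes on the opposite strand also overlap Rbfox2 (1700109K24Rik), Ptbp2 (Gm42804) and Elavl2 (Gm12653).

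**Figure D3:**
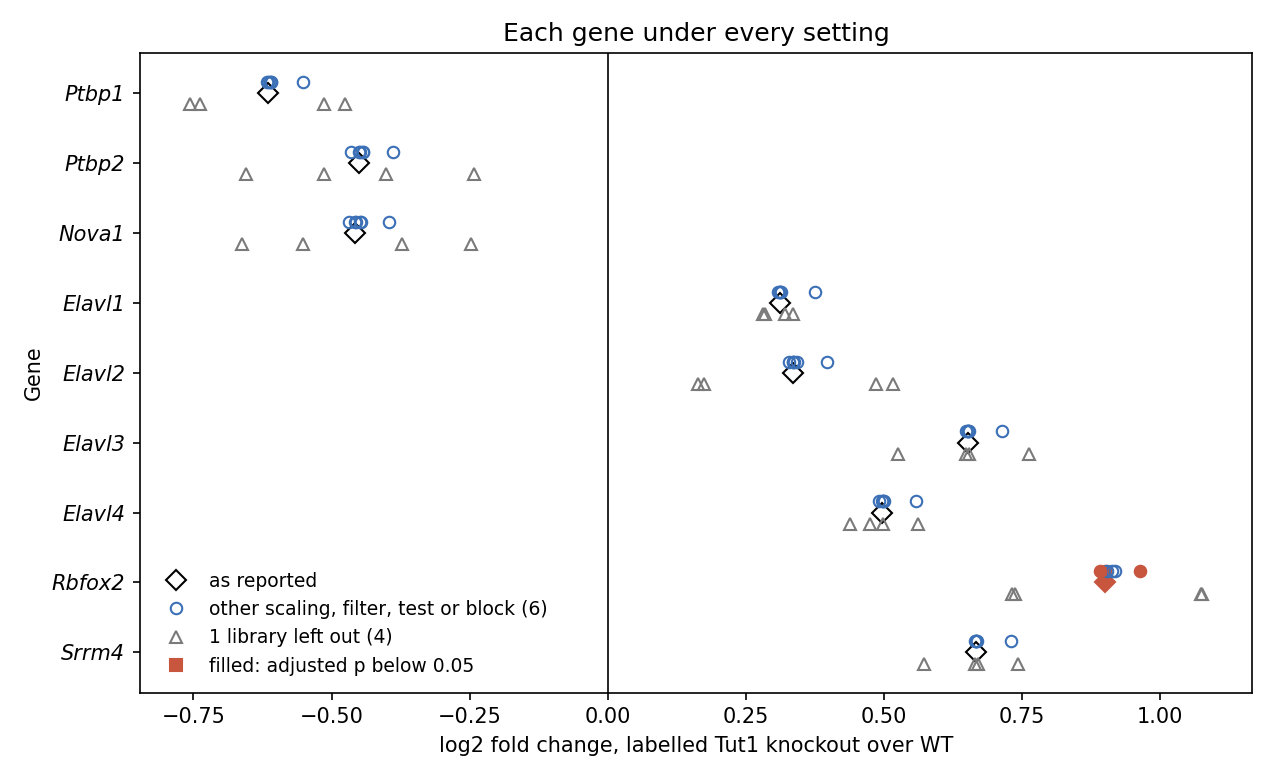
Log2 fold change of each gene (horizontal axis) as reported (diamonds), under 6 other choices of scaling, filter, test or block (circles) and with 1 of 4 libraries left out (triangles), with red fill for an adjusted p below 0.05. No gene crossed 0, which was nearly fixed in advance since the groups of each gene did not overlap. Rbfox2 alone was past the threshold, in 3 of 10 alternatives.

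The direction of all 9 genes was the same under each of the 10 alternatives that were run, 90 of 90 values in all, as the plot of settings shows. This could hardly have come out otherwise. The groups did not overlap in any of the 9 genes, so leaving out a library keeps the sign, and the other alternatives used the same 4 libraries. The spread differed by gene. Ptbp2 ranged from -0.66 to -0.24 and Nova1 from -0.66 to -0.25, with both extremes given by leaving out a KO-labelled library. Ptbp1 stayed between -0.76 and -0.48, and its lowest adjusted p was 0.0539. Srrm4 stayed between 0.57 and 0.74 and Elavl3 between 0.53 and 0.76. Elavl2 varied with single libraries, at 0.16 without KO-labelled replicate 2, 0.17 without WT replicate 2 and 0.52 without KO-labelled replicate 1.

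To order the levels of the genes, CPM was divided by the length of the longest annotated coding transcript in kilobases. Long reads need not scale with length, so this order is a description. In WT, Ptbp1 stood highest at 143.4 and 174.5 CPM per kilobase, and Ptbp2 followed at 55.3 and 59.9. Elavl4 (31.4 and 31), Nova1 (27.5 and 31.2), Elavl2 (28.9 and 23.3), Srrm4 (23.5 and 20.9) and Elavl3 (23 and 19.5) came next in CPM per kilobase, and within these 5 each overlapped the next in that order. Rbfox2 (14 and 17.8) and Elavl1 (13.7 and 14.1) were lowest and overlapped each other. In the KO-labelled libraries, Ptbp1 was again first, at 111.5 and 95.4 CPM per kilobase. Elavl4 there had a higher mean than Ptbp2, 44.2 against 42.7 CPM per kilobase, although replicate 2 had Ptbp2 higher. Nova1 moved from the 4th to the 8th place.

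A list of 40 other RNA-binding regulators, drawn from the Celf, Musashi, Mbnl, Pcbp, Igf2bp and similar families, was compared next. Of these, 36 were in the table and 30 were tested. In the KO-labelled libraries 2 rose (Rbfox1 and Celf4), 0 fell and 28 did not pass. At an unadjusted p below 0.05, 6 were higher and 2 lower. For this list and those below, 2.06% of all tested genes passed the edgeR threshold and 14.2% had an unadjusted p below 0.05. Log2 fold changes ran from -0.66 to 1.63, with 15 on either side of 0 and a median of 0.01, beside -0.01 over all tested genes. Celf4, a neuronal regulator of message stability and splicing, had 25 and 35 counts in WT and 95 and 52 counts in the KO-labelled libraries. Celf4 had the log2 fold change 1.33 ± 0.26 (adjusted p = 0.00259 in edgeR). With KO-labelled replicate 1 left out, its adjusted p was 0.269, and in DESeq2 it was 0.141.

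**Figure D4:**
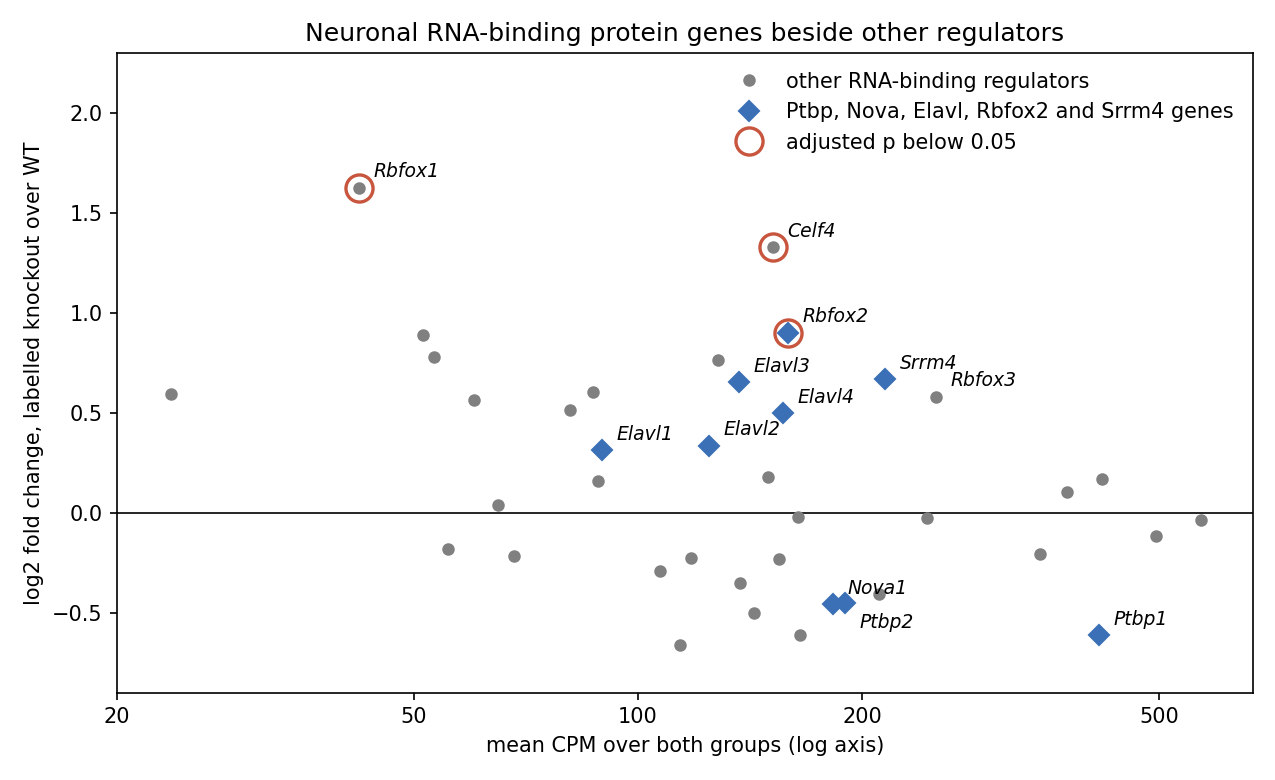
Log2 fold change (vertical axis) against mean CPM over both groups (log axis) for the 9 genes (blue diamonds) and 30 other RNA-binding regulators (grey points), with red rings for an adjusted p below 0.05. Rbfox1, Celf4 and Rbfox2 are ringed, and the grey points lie as often below 0 as above it.

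Among 16 genes known as targets of these proteins, 14 were tested, of which 1 rose (Mapt), 0 fell and 13 did not pass, with a median log2 fold change of -0.04. Mapt encodes the microtubule protein tau, and its alternative exons and its message are bound by several of these regulators. It rose from 33 and 43 counts in WT to 162 and 101 counts (log2 fold change 1.83 ± 0.22, edgeR adjusted p = 8.85e-07) and was past the threshold under all 10 alternatives. Dlg4, whose message Ptbp proteins destabilise by exon skipping, is named after its values were seen. It had 13 and 19 counts in WT against 15 and 19 counts in the KO-labelled libraries (0.15 ± 0.39, edgeR adjusted p = 0.705).

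The circuit of REST and miR-124, which sets Ptbp1 and Srrm4 in neurogenesis, was compared through 8 genes, of which 5 were tested and 0 passed in edgeR, DESeq2 or limma-voom. In edgeR 1 of them, Mir124-2hg, was below an unadjusted p of 0.05, as was 1 in limma-voom and 0 in DESeq2. Rest, the repressor of neuronal genes, had 70 and 59 counts in WT and 58 and 42 counts in the KO-labelled libraries (log2 fold change -0.32 ± 0.24, edgeR adjusted p = 0.611). Its cofactors Rcor1 and Sin3a were at -0.19 ± 0.28 and 0.11 ± 0.29 on the log2 scale. Mir124-2hg, a host transcript of miR-124, was singled out after its values were seen. It had 12 and 17 counts in WT and 22 and 30 counts in the KO-labelled libraries (0.91 ± 0.37, edgeR adjusted p = 0.234). The mature microRNA was not measured by these poly(A) libraries.

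Markers of cell state were compared beside these genes, where 2.06% of all tested genes passed the threshold. Of 17 neuron markers, all in the table, 10 were tested, 2 rose (Mapt and Dcx), 0 fell, and the median log2 fold change was 1.19. All 10 were higher, 6 of them at an unadjusted p below 0.05 in edgeR. Dcx, a microtubule protein of migrating neurons, rose from 36 counts in each WT library to 86 and 70 counts (log2 fold change 1.17 ± 0.24, edgeR adjusted p = 0.00461), but was not past the threshold without KO-labelled replicate 1 (adjusted p = 0.16) or 2 (0.0899). Map2 and Tubb3, neuronal cytoskeleton genes named after their values were seen, had log2 fold changes of 0.12 and 0.21 (edgeR adjusted p = 0.815 and 0.836). These were the smallest of the 10. The summed neuron markers were at 1246 to 1342 CPM in WT and 1865 to 2099 CPM in the KO-labelled libraries. The other 7 markers had too few counts to be tested, among them Nefl with 0 counts in all libraries. Of 16 progenitor markers, 13 were tested, 0 rose and 2 fell (Lhx2 and Mki67), with a median of -0.36. Their sums were 3941 to 4522 CPM in WT and 2897 to 3185 CPM in the KO-labelled libraries. Lhx2, a factor of cortical progenitors, was at 348 and 272 counts against 106 and 106, and Mki67, a gene of dividing cells, at 210 and 167 against 122 and 97. Of the 13, 9 were lower and 4 higher. Named after their values were seen, the progenitor genes Pax6, Nes and Vim had log2 fold changes of -0.14, -0.04 and 0.06, and Ccnd1, a cyclin of dividing cells, had 0.58 (edgeR adjusted p = 0.241). Lhx2 did not pass without KO-labelled replicate 1 (edgeR adjusted p = 0.0539), and Mki67 did not pass without WT replicate 1 (0.388) or without KO-labelled replicate 1 (0.333) or 2 (0.202). The part of these marker values in the levels of Ptbp1, the Elavl genes, Rbfox2 and Srrm4 was not tested.

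Markers of cells outside the Emx1 lineage were compared last, again beside 2.06% of all tested genes past the threshold. The summed GABAergic lineage markers were at 15.1 and 72.6 CPM in WT and at 186 and 97.2 CPM in the KO-labelled libraries, with 1 of 2 tested genes past the threshold (Dlx1, higher) and Dlx2 and Dlx5 at 0 in both WT libraries. Mesenchyme and vessel markers summed to 130.2 and 284.9 CPM against 518.2 and 375.1 CPM, with 1 of 4 tested past the threshold (Col1a2, higher). Red cell and microglia markers summed to 887.5 and 1195 CPM against 1605 and 1153 CPM, so that their groups overlapped. Of 7 tested there, 3 microglial genes rose (Cx3cr1, Aif1 and Csf1r) and the globin gene Hbb-bh1 fell. The globin genes Hba-x, Hba-a1 and Hbb-y, named after their values were seen, had log2 fold changes of 1.07 (edgeR adjusted p = 0.0563), 0.24 and -0.14. The microglial genes C1qa and C1qb were at or near 0, with 0 to 2 counts in every library. Of these 6 genes, 0 passed in edgeR without KO-labelled replicate 1 (adjusted p 0.0741 to 0.63, with 5 at an unadjusted p below 0.05). Without KO-labelled replicate 2, Cx3cr1 and Aif1 passed, and these also passed without either WT library. The part of these cells in the values of Rbfox2 and of the other genes was not tested.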

How the data were processed

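Poly(A)-enriched RNA of 4 libraries (2 WT, 2 labelled Tut1 knockout) was sequenced on Nanopore. The authors aligned reads to the mouse transcriptome (GRCm38) with minimap2 and processed them with FLAIR, and the deposited table holds raw counts per gene with no normalization. How reads with several matches and strand were treated is not stated. Symbols matched 16429 identifiers, and 20 had none. Positions, isoforms and sequences came from GENCODE M21 on GRCm38 (1-based), and coding sequences were aligned with MAFFT 7.526 and Biopython 1.88.

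Genes were filtered with filterByExpr of edgeR 4.0.16 in R 4.3.3 (minimum count 10, minimum total 15) and scaled by TMM over the 5878 tested genes. Groups were compared by the quasi-likelihood test (two-sided, no covariate, Benjamini-Hochberg over all tested genes, threshold 0.05). The biological coefficient of variation was 10.5%, and 2 residual degrees of freedom were joined by 37.5 prior degrees of freedom. The SE is the absolute log2 fold change over the square root of F. CPM values were computed with TMM-scaled library sizes. Paralogue ratios used a prior count of 0.5 and an exact permutation test.

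The 10 genes were given by name. All 10 and Tut1 were always named, as were, from each list, at most 5 genes past the threshold by smallest p and otherwise up to 3 with the highest mean count. Members, lists and tests were chosen with earlier results of these data known. As alternatives, scaling by median-of-ratios size factors or by total counts, testing without a filter, DESeq2 1.42.0, limma-voom (limma 3.58.1), the replicate number as a block, and leaving out each library were run. The procedure was tested on simulated counts.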

Additional observations from a re-analysis of the deposited data

How the results depend on the processing

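The log2 fold changes of all 9 genes kept their direction under all 10 alternatives (90 of 90 values). With groups that did not overlap, this was nearly fixed in advance and is no separate support. Rbfox2 passed the threshold in limma-voom and with scaling by total counts or by median-of-ratios size factors, and 0 of the 9 genes passed without the filter, in DESeq2, with the replicate block, or when any 1 library was left out (0 to 0). At an unadjusted p below 0.05, 4 of the 9 genes were found without the filter, against 5 as reported. In DESeq2 there were 3, with the block 4 and in limma-voom 7. Over all genes, 1277 of 15083 were below it without the filter, against 834 of 5878 as reported. Of the 5878 genes kept by the filter, 218 were below it in DESeq2, 743 with the block and 798 in limma-voom. Across the table, 121 genes passed, against 8 in DESeq2 (3713 genes with an adjusted p), 76 with the replicate block (74 of them among the 121) and 3 to 108 without 1 library, lowest without KO-labelled replicate 1. The cause was not tested, although a left-out library leaves fewer samples. The replicate numbers were not shown to pair the libraries: with only 2 pairs, deviations of same-numbered libraries correlated at -0.06, and no label names a shared litter. Scaling by total counts gave 129 genes, 105 of them higher, against 82 of 121 higher.

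In DESeq2 the genes past the threshold were 0 other RNA-binding regulators (2 at an unadjusted p below 0.05), 1 neuron marker, 1 progenitor marker, 0 GABAergic, 0 mesenchyme or vessel and 0 red cell or microglia markers. At an unadjusted p these last 3 lists had 0, 1 and 4. DESeq2 gave no adjusted p for Rbfox1, Dlx1 and Col1a2, so these could not pass there. Limma-voom called 1 other RNA-binding regulator, 3 neuron markers, 3 progenitor markers and 5 red cell or microglia markers. Without 1 library, the difference of the log2 ratios ranged from -0.15 to 0.49 for Ptbp2 over Ptbp1, which turns its sign, and from 0.09 to 0.30 for the Elavl genes. Few counts limit precision: 1 count equals 2.66 to 3.47 CPM.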
